A study of Mus musculus with 34 samples.

Results

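The 8 CC chemokine genes described here, Ccl2, Ccl7, Ccl12, Ccl5, Ccl9, Ccl6, Ccl3 and Ccl4, lie in 2 groups on mouse chromosome 11 and are 8 of 21631 protein-coding genes measured. They were chosen by name and position, with earlier results of these data known. Each was measured as the length of its surroundings covered by called peaks. The window ran 2.5 kb to either side of both ends of the gene in RefSeq (mm10). The chromatin came from hippocampal microglia of Tmem119-tdTomato+/- mice, a reporter that both groups carry and that marks resident microglia. Control mice (Ctrl) were compared with mice whose growth was restricted in the uterus (FGR), both at 3 weeks after birth. The labels of replicate 4 give no age. The 4 histone marks were profiled by native chromatin immunoprecipitation scaled down for very few cells, each in 4 Ctrl and 4 FGR libraries. The labels do not tell if each replicate was its own animal or a pool, so a p-value here measures the spread between these libraries, which may be technical.

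CC chemokines are small secreted proteins that draw leukocytes along a concentration gradient through G protein-coupled receptors. Ccl2, Ccl7 and Ccl12 signal mainly through CCR2 and bring monocytes into tissue, Ccl3, Ccl4 and Ccl5 draw macrophages and T cells, and mouse Ccl6 and Ccl9 act on CCR1. In the brain, microglia are a main source of several of them, and Ccl3, Ccl4 and Ccl12 are well known for rapid induction when these cells are activated. H3K4me3 marks active gene starts, H3K9ac and H3K27ac mark active starts and enhancers, and H3K9me3 marks silent chromatin.

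The peak lists themselves differed between the groups, and these differences accompany every value below. H3K4me3 peaks covered 11.1 ± 0.76 Mb of the genome in Ctrl and 37.2 ± 2.2 Mb in FGR libraries (mean ± SD, n = 4 each). H3K27ac peaks covered 64.1 ± 1.27 Mb and 35.6 ± 3.96 Mb. H3K9ac covered about the same length in both groups, 43.4 ± 1.21 Mb and 43.8 ± 7.11 Mb, although the FGR lists held more and narrower peaks, 54547 to 86834 against 42197 to 47707. Minimum peak width was 275 to 280 bp (Ctrl) against 148 to 150 bp (FGR) for H3K4me3, and 267 to 284 bp against 148 to 151 bp for H3K27ac. The files hold no read counts, so sequencing depth is unknown and its part in these results was not tested. In chromatin from many cells, fewer cells that carry a mark and less of the mark per cell cannot be told apart.

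In FGR microglia H3K9ac and H3K27ac fell at most of the chemokine genes while H3K4me3 rose. H3K9ac fell at 6 of 8 members (Ccl2, Ccl12, Ccl9, Ccl6, Ccl3 and Ccl4), and none rose. Across all 15605 genes tested for this mark 30% fell and 28.5% rose (limma, Benjamini-Hochberg adjusted p under 0.05). The median difference was -1.59 kb over the 8 members and 0.03 kb over all genes tested. H3K27ac fell at the same 6 members, beside 81.6% of 11877 genes that fell and 0.194% that rose, with a median difference of -1.14 kb for the members and -0.71 kb for all genes. H3K4me3 rose at 5 of the 6 members that could be tested (Ccl12, Ccl9, Ccl6, Ccl3 and Ccl4), beside 95.5% of 14043 genes that rose and 0% that fell. The median H3K4me3 difference was 1.97 kb for those 6 and 0.89 kb for all genes. The members' H3K27ac and H3K4me3 counts (6 of 8 and 5 of 6) thus lie near the background shares. Their H3K9ac count (6 of 8 lower) lies above its own. That count is not particular to the chemokines, as 6 of 8 microglia markers also fell in H3K9ac and 2 rose (median difference -2.79 kb). Ccl3 and Ccl4 count as 2 members although their windows share 5001 bp. With FGR lists shortened to the number of peaks in the Ctrl lists, H3K4me3 was called higher at 2 members, Ccl3 and Ccl4. After quantile normalization H3K27ac was called lower at 1 member, Ccl6, and higher at 1, Ccl3. No share of all genes called is given for either alternative.

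**Figure D1:**
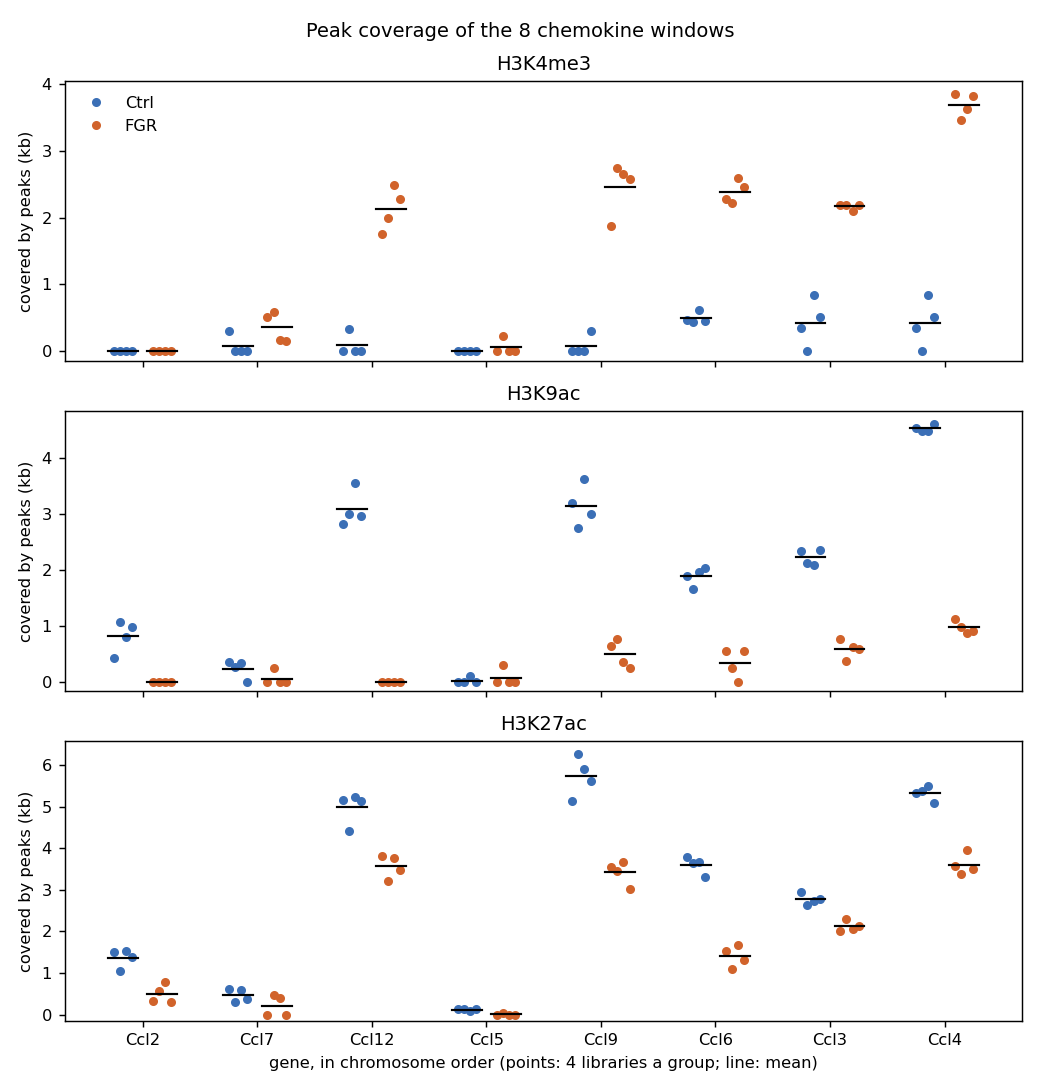
Length of each member's window covered by peaks (kb) in each of the 4 Ctrl (blue) and 4 FGR (orange) libraries for H3K4me3, H3K9ac and H3K27ac, with the group mean as a line. The H3K9ac groups are apart at Ccl2, Ccl12, Ccl9, Ccl6, Ccl3 and Ccl4, and no FGR library had an H3K9ac peak at Ccl2 or Ccl12.

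At the gene starts the loss of H3K9ac and the presence of H3K27ac could be set side by side. RefSeq promoters were matched for 4 of the 8 members, Ccl12, Ccl9, Ccl6 and Ccl3. An H3K9ac peak lay over each of these 4 starts in 4 of 4 Ctrl libraries and over none of them in any FGR library. Of 8276 protein-coding gene starts under an H3K9ac peak in all 4 Ctrl libraries, 196 (2.37%) were under none in FGR. H3K27ac peaks covered the same 4 starts in all 8 libraries, while 78 of those 196 starts (39.8%) were under H3K27ac in all 4 FGR libraries. H3K4me3 covered the starts of Ccl12 and Ccl3 in 4 of 4 FGR libraries and those of Ccl9 and Ccl6 in 3 of 4. In Ctrl, 1 library had an H3K4me3 peak over a start, that of Ccl3. The loss was complete only at Ccl12 when a peak within 0.5 kb was also counted, a rule added after the data were seen. By that rule 1 of the 4 starts lost H3K9ac in every FGR library, against 1.07% of 10615 starts. The difference between the rules came from weak FGR peaks just inside Ccl3 (replicate 1), Ccl9 (replicates 1 and 2) and Ccl6 (replicate 2). FGR replicates 3 and 4 had no H3K9ac peak within 0.5 kb of these starts.

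The 250 bases before each of these starts are shown (RefSeq, GRCm38.p6, each 5′ to 3′ in the direction of its gene). No FGR library had an H3K9ac peak in them, while H3K27ac peaks covered all or part of each. The lowest H3K27ac coverage in an FGR library was 151 of 300 bases around the Ccl3 start and 182 of 300 around that of Ccl9. Capitals mark matches, on either strand, to the kappaB consensus, the AP-1 motif TGANTCA, the ETS core GGAAGT, the C/EBP motif TTGCNNAA and the TATA box TATAAA, and neighbouring matches can overlap.
Ccl12 (chr11:82101595-82101844, plus strand): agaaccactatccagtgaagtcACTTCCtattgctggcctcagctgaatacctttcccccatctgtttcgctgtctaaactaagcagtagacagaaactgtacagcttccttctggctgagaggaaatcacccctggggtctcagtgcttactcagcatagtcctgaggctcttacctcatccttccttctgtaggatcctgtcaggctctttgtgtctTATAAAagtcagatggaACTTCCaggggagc
Ccl9 (chr11:83578637-83578886, minus strand): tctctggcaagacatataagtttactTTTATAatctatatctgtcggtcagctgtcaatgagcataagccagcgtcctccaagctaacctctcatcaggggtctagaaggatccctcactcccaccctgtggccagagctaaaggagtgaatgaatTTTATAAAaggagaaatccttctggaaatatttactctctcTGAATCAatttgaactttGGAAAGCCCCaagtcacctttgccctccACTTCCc
Ccl6 (chr11:83593088-83593337, minus strand): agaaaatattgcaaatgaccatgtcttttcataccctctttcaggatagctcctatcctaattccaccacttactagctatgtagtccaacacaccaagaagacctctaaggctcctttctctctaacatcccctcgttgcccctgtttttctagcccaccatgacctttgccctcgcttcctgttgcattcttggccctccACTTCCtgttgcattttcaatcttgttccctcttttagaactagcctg
Ccl3 (chr11:83649379-83649628, minus strand): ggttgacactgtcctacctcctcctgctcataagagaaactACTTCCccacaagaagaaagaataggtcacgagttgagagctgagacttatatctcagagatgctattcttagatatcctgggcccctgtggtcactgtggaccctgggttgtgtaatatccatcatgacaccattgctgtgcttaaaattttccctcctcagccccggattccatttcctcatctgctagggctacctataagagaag
An ETS core stood in each of the 4 stretches, as ACTTCC on the strand shown, at -228 and -14 in Ccl12, -209 in Ccl3, -48 in Ccl6 and -7 in Ccl9, counted from the start. Of 32851 promoters in the same table, 19.7% hold this core in the same stretch. Ccl12 had a TATA box from -31 to -26, a motif found in 12.4% of promoters. Ccl9 alone of the 4 held a kappaB match (-35 to -26, in 3.9% of promoters) and an AP-1 match (-53 to -47, in 6.75%), with TATA box letters at -94 to -87 and -224. No C/EBP match stood in any of them, against 9.56% of promoters. These are matches of letters and not measured binding.

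**Figure D2:**
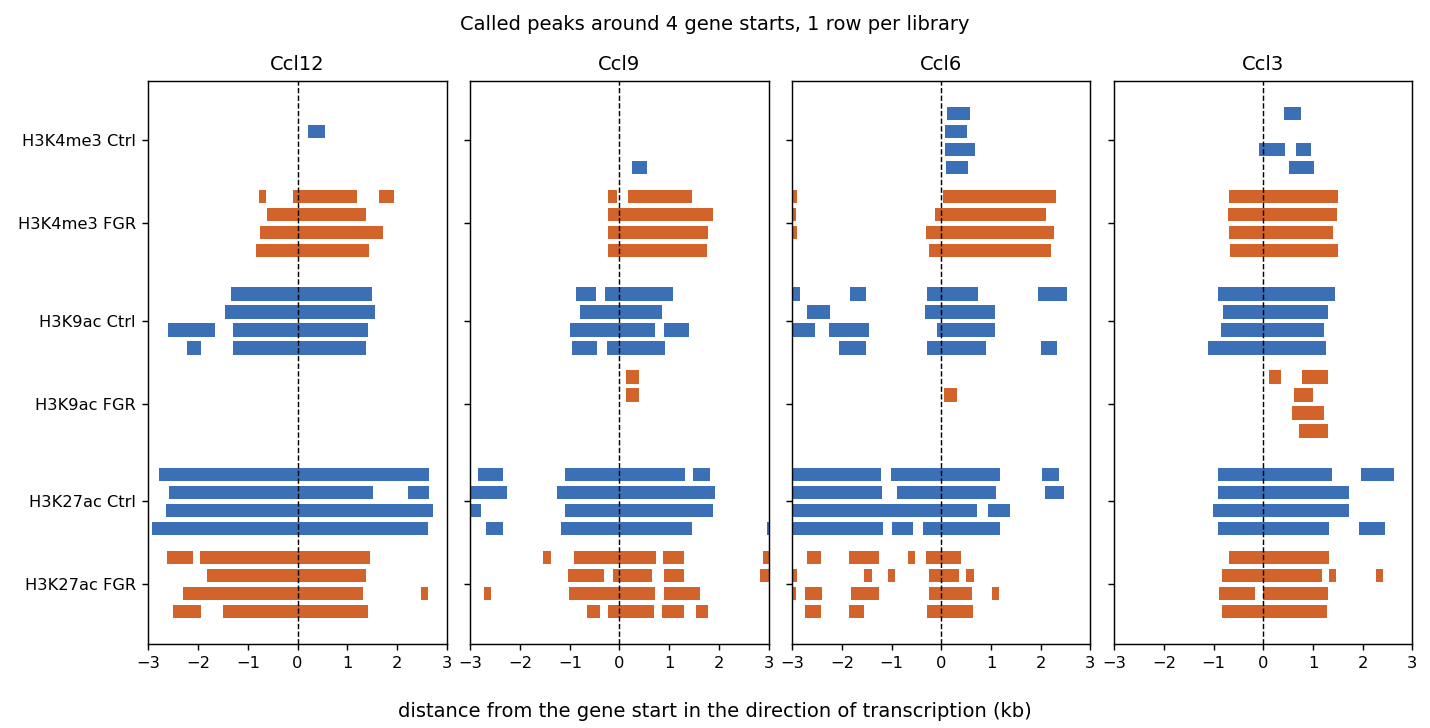
Called peaks within 3 kb of the starts of Ccl12, Ccl9, Ccl6 and Ccl3, with distance in kb in the direction of transcription and 1 row per library (blue Ctrl, orange FGR). H3K9ac bars cross the dashed start line in all Ctrl rows and in no FGR row, and H3K27ac bars cross it in all 8 rows.

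Ccl12 (82101845 to 82103399), which attracts monocytes through CCR2, showed the pattern most fully. Its window held 2.83, 3.01, 3.56 and 2.97 kb of H3K9ac peaks in the 4 Ctrl libraries and no peak in the 4 FGR libraries. The Ctrl mean was 3.09 ± 0.323 kb (SD, n = 4), and the fall had an adjusted p of 2.81e-06 (limma). The strongest Ctrl peak there was 2683 to 3011 bp wide with a fold enrichment, as the authors deposited it, of 14.3 to 17.9, above 95.7 to 99.3% of the peaks in its own list. H3K27ac over the same window was 5.15, 4.43, 5.22 and 5.13 kb in Ctrl and 3.81, 3.20, 3.78 and 3.47 kb in FGR. The H3K27ac groups did not overlap (difference -1.42 kb, SE 0.203, adjusted p = 1.79e-04 by limma). After quantile normalization that H3K27ac difference was 0.46 kb in the other direction. H3K4me3 was found in 1 of 4 Ctrl libraries (0.334 kb) and in all FGR libraries at 1.76, 1.99, 2.49 and 2.27 kb, and the rise was no longer called with lists of equal length (0.24 kb, adjusted p = 0.432 by limma).

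Ccl2 (82035577 to 82037452), the principal monocyte attractant of the CCR2 ligands, carried shorter peaks. H3K9ac covered 0.428, 1.07, 0.801 and 0.99 kb of its window in Ctrl and none in FGR (difference -0.82 kb, SE 0.140, adjusted p = 0.00117 by limma). H3K27ac fell from 1.37 ± 0.226 kb to 0.494 ± 0.228 kb (n = 4 each), and all Ctrl libraries lay above all FGR libraries. No library of either group had an H3K4me3 peak in the Ccl2 window. Ccl7 (82045712 to 82047525), a relative of Ccl2 with a wider range of receptors, had little of any mark, with 0.466 ± 0.157 kb of H3K27ac in Ctrl against 0.213 ± 0.248 kb in FGR. Its groups overlapped in every mark and no difference passed the test, with 95% intervals of -0.44 to 0.08 kb for H3K9ac and -0.57 to 0.07 kb for H3K27ac. For H3K4me3 at Ccl7 the difference was 0.28 kb (interval -0.01 to 0.57 kb, adjusted p = 0.0613 by limma). That one passed the threshold without Ctrl replicate 1 (adjusted p = 0.0267), FGR replicate 3 (0.04) or FGR replicate 4 (0.037).

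Ccl3 (83647843 to 83649378) and Ccl4 (83648624 to 83664683 in the RefSeq model) encode a pair of inflammatory chemokines. The Ccl4 model begins inside Ccl3, so their windows share 5001 bp and their values are not independent. Whether that near end belongs to Ccl4 is unsure, so the values of the full Ccl4 window partly measure Ccl3, and those of the end away from Ccl3 are given beside them. H3K9ac at Ccl3 was 2.35, 2.13, 2.09 and 2.36 kb in Ctrl and 0.776, 0.376, 0.637 and 0.591 kb in FGR (adjusted p = 1.5e-05 by limma). The FGR peaks that remained lay inside the gene, the main one starting 579 to 774 bp and ending 994 to 1301 bp past the start. H3K27ac at Ccl3 moved least of the 6 members called, from 2.78 ± 0.134 kb to 2.12 ± 0.125 kb, which is 76.4% of the Ctrl mean. After quantile normalization this difference was 0.58 kb in the opposite direction (adjusted p = 0.0127 by limma). H3K4me3 at Ccl3 was 0.341, 0, 0.835 and 0.502 kb in Ctrl and 2.19, 2.18, 2.11 and 2.19 kb in FGR, a narrow spread around one peak that covered the start in every FGR library.

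H3K9ac at Ccl4 varied little within each group. Its window held 4.54, 4.49, 4.49 and 4.61 kb in Ctrl and 1.12, 0.996, 0.889 and 0.919 kb in FGR, a difference of -3.55 kb (SE 0.091, adjusted p = 2.05e-07 by limma). With the end away from Ccl3 alone, an alternative added after the data were seen, H3K9ac fell from 2.30 ± 0.097 kb to 0.387 ± 0.161 kb (adjusted p = 5.23e-06). Around that far end no Ctrl library had an H3K4me3 peak, and the FGR libraries had 1.67, 1.28, 1.53 and 1.63 kb. H3K27ac over the full Ccl4 window fell from 5.32 ± 0.173 kb to 3.61 ± 0.241 kb and was 0.24 kb higher, not called, after quantile normalization.

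Ccl5 (83525778 to 83530518), the T cell and monocyte attractant RANTES, was nearly bare. H3K9ac touched its window in 1 Ctrl library (0.118 kb) and 1 FGR library (0.304 kb), and the difference had an interval of -0.18 to 0.28 kb. H3K27ac covered 0.08 to 0.133 kb in the 4 Ctrl libraries, the edge of a region 2515 to 4317 bp wide whose body lay outside the window, and 0.036 kb in 1 FGR library. When the window was widened to 5 kb this region entered it, and Ccl5 was then called lower in H3K9ac (-0.96 kb, adjusted p = 0.0141 by limma) and in H3K27ac (-1.21 kb, adjusted p = 3.40e-05).

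Ccl9 (83572917 to 83578636) and Ccl6 (83587886 to 83593087), rodent chemokines of the CCR1 type that are made by myeloid cells, lie between Ccl5 and Ccl3. H3K9ac at Ccl9 was 3.19, 2.74, 3.62 and 3.00 kb in Ctrl and 0.645, 0.775, 0.355 and 0.26 kb in FGR (difference -2.63 kb, SE 0.198, adjusted p = 1.74e-05 by limma). At Ccl6 it was 1.89, 1.66, 1.96 and 2.04 kb in Ctrl and 0.557, 0.254, 0 and 0.558 kb in FGR (difference -1.55 kb, SE 0.151, adjusted p = 6.19e-05). Every Ctrl library exceeded every FGR library at both genes. Ccl6 lost the largest share of H3K27ac among the members between Ccl9 and Ccl4, from 3.61 ± 0.209 kb to 1.40 ± 0.257 kb, 38.9% of the Ctrl mean. Outside that stretch Ccl2 stood lower, at 36.1%, as did the nearly bare Ccl5, at 7.69% and not called. Ccl6 was also the one member still called lower in H3K27ac after quantile normalization. At Ccl9 H3K27ac fell from 5.73 ± 0.477 kb to 3.42 ± 0.280 kb. H3K4me3 rose from 0.489 ± 0.083 kb to 2.39 ± 0.170 kb at Ccl6 and from 0.073 ± 0.146 kb to 2.46 ± 0.398 kb at Ccl9, and neither rise was called with lists of equal length (0.08 kb and 0.25 kb).

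The other chemokine genes beside Ccl2, Ccl7 and Ccl12 were silent by these marks. Ccl11 (an eosinophil attractant), Ccl8 and Ccl1 had no H3K4me3, H3K9ac or H3K27ac peak in any of the 24 libraries. Heatr9, whose window shares 1717 bp with that of Ccl5, had 1 H3K27ac peak of 0.248 kb in 1 FGR library and nothing else in these marks. Taf15, an RNA-binding protein gene reaching into the flank on the Ccl5 side, rose in H3K4me3 from 1.13 ± 0.562 kb to 1.88 ± 0.063 kb and fell in H3K9ac from 2.18 ± 0.215 kb to 1.27 ± 0.068 kb.

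Summed over whole stretches of chromosome, H3K9ac was nearly absent around the monocyte attractants in FGR. The stretch from Ccl2 to Ccl12 with 20 kb on either side (82015577 to 82123399, 107.823 kb) held 7.18 ± 1.27 kb of H3K9ac in Ctrl and 0.249 ± 0.197 kb in FGR, 3.47% of the Ctrl mean. The stretch from Ccl5 to Ccl4 (83505778 to 83684683, 178.906 kb) held 23.6 ± 1.68 kb and 6.63 ± 1.22 kb, 28%. The whole cluster (82015577 to 83684683, 36 protein-coding genes) held 75.8 ± 4.47 kb and 42.8 ± 8.76 kb, 56.4%. In each of the 3 stretches all Ctrl libraries lay above all FGR libraries (exact permutation test, two-sided, p = 0.0286, the smallest that 4 against 4 allows, 0.0381 after adjustment over 12 tests). Per Mb of genome covered, H3K9ac went from 0.165 ± 0.025 to 0.006 ± 0.004 kb and from 0.544 ± 0.032 to 0.151 ± 0.007 kb in the 2 gene groups.

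H3K27ac in the same stretches fell close to the genome. It went from 15.3 ± 0.789 kb to 7.30 ± 1.18 kb around Ccl2 to Ccl12 and from 47.8 ± 0.959 kb to 24.9 ± 2.52 kb around Ccl5 to Ccl4 (exact permutation p = 0.0286 each, adjusted 0.0381). Per Mb of genome covered these values were 0.238 ± 0.011 against 0.204 ± 0.016 kb and 0.745 ± 0.013 against 0.702 ± 0.027 kb, with the groups still apart (exact p = 0.0286 each). H3K4me3 rose from 1.11 ± 0.596 kb to 12.1 ± 1.01 kb around Ccl5 to Ccl4, and per Mb of genome covered from 0.10 ± 0.056 to 0.324 ± 0.019 kb (exact p = 0.0286 for both). Around Ccl2 to Ccl12 it rose from 0.300 ± 0.427 kb to 2.98 ± 0.434 kb, and the difference did not hold with lists of equal length (0.025 kb) or per Mb (0.053 kb, exact p = 0.114). Over the whole cluster H3K4me3 rose 3.19-fold, and per Mb the Ctrl value was 1.57 ± 0.066 kb against 1.49 ± 0.016 kb in FGR.

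**Figure D3:**
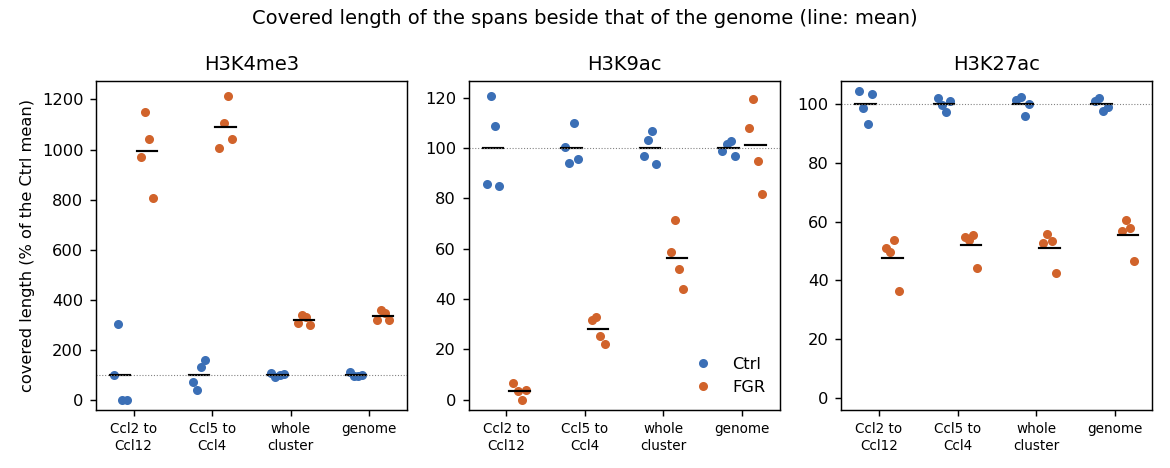
Length covered by peaks in the 2 gene groups, the whole cluster and the genome as a percentage of the Ctrl mean, per library (blue Ctrl, orange FGR, line at the mean). FGR H3K9ac stands at 3.47% and 28% of Ctrl in the gene groups while the genome values straddle the Ctrl mean, and FGR H3K27ac lies at 47.8% to 52.1% in the 3 stretches.

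Peaks of the 24 libraries merged into 66 regions in the 2 gene groups, and 33 of them were present in all 4 libraries of at least 1 mark and group. Of these 33, 21 lay beyond 2.5 kb of any member's end. H3K9ac was present in all 4 Ctrl libraries at 18 regions, and at 6 of these (4 around Ccl2 to Ccl12 and 2 around Ccl5 to Ccl4) no FGR library had it. Genome-wide, 4088 of 25223 such regions (16.2%) were lost in the same way. At 5 of the 6, H3K27ac was present in all 4 FGR libraries, as it was at 69.4% of the 4088. At 7 of the 18, all around Ccl5 to Ccl4, H3K9ac was present in all 4 FGR libraries. No genome-wide share is given for that count. Of 30 regions with H3K27ac in all Ctrl libraries, none was without it in all FGR libraries. No genome-wide share is given for such losses of H3K27ac, so this count cannot be read as particular to the cluster.

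A pair of the lost regions lay between Ccl6 and the far end of Ccl4, beyond 2.5 kb of any member's end. The first (83627781 to 83631867), 15976 bp from the near end of Ccl3, held 1.40, 1.07, 1.69 and 0.853 kb of H3K9ac in Ctrl and none in FGR, with H3K27ac at 3.36 kb and 1.98 kb on average. The second (83654703 to 83659735), inside the RefSeq model of Ccl4 and 4948 bp from its far end, held 2.03, 1.09, 1.82 and 1.36 kb of H3K9ac in Ctrl and none in FGR, with H3K27ac at 4.13 kb and 1.47 kb. Upstream of Ccl12 by 23005 bp, a region (82076731 to 82078840) held H3K9ac at 1.03, 1.2, 0.722 and 0.704 kb in Ctrl only, and H3K27ac in all 8 libraries.

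Between Ccl5 and Ccl9 some regions had H3K9ac in both groups. A region 18064 bp beyond Ccl5 (83548583 to 83551483) had H3K9ac at 1.69, 1.37, 1.73 and 1.74 kb in Ctrl and 1.63, 1.33, 1.5 and 0.848 kb in FGR, so that the groups overlapped. Another, 9391 bp beyond Ccl5 (83539910 to 83543238), had 0.573, 0.83, 1.43 and 0.429 kb in Ctrl and 0.684, 0.641, 0.741 and 0.684 kb in FGR, again overlapping. A short one (83555216 to 83555954), 16963 bp from Ccl9, was the 1 region with H3K9ac in all FGR libraries (0.584, 0.543, 0.351 and 0.65 kb) and in no Ctrl library. The region whose edge reaches into the Ccl5 window (83532797 to 83537202) held 2.49 ± 0.482 kb of H3K9ac in Ctrl and 0.622 ± 0.290 kb in FGR. These regions were singled out after their values were seen and were not tested one by one.

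**Figure D4:**
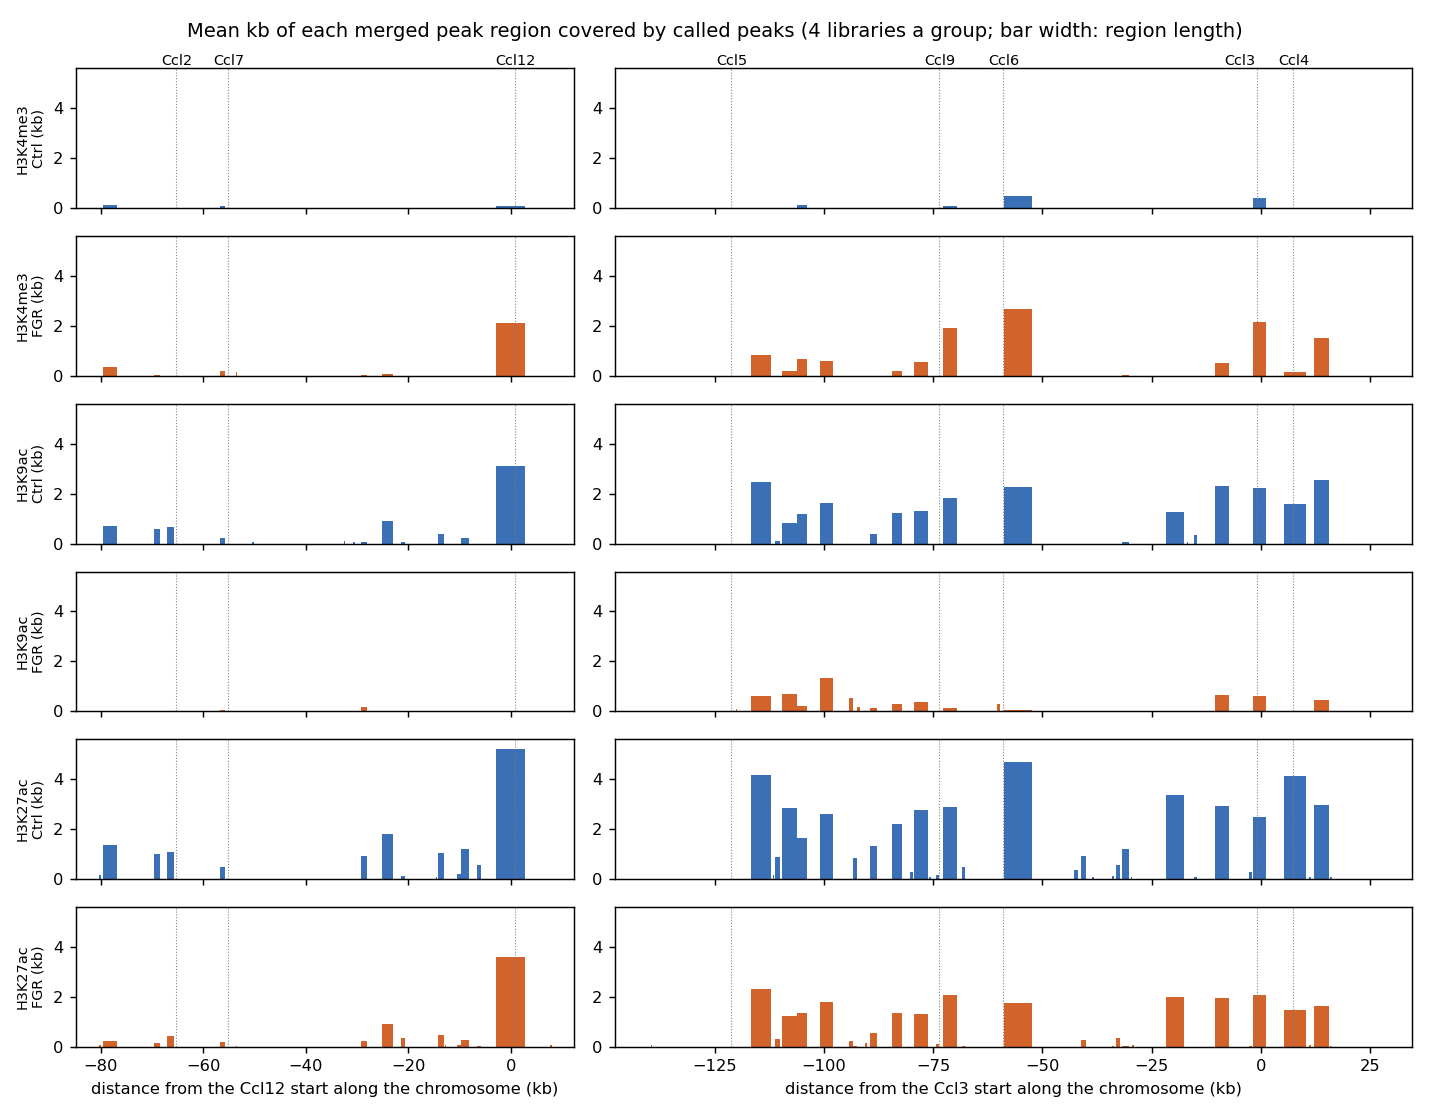
Mean length of each merged peak region covered by peaks (kb, 4 libraries a group) against distance from the Ccl12 start (left) or the Ccl3 start (right) along the chromosome, with bar width as the region's length and dotted lines at the genes. The H3K9ac FGR row is nearly empty around Ccl2 to Ccl12 and keeps a bar of 1.33 kb between Ccl5 and Ccl9, where Ctrl stood at 1.63 kb.

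H3K9me3 could not be compared on equal terms. Replicates 1 to 3 are broad peak lists that covered 392 ± 97 Mb in Ctrl and 12 ± 2.65 Mb in FGR (n = 3 each), and the Ctrl lists include peaks with a q-value of 1. At Ccl12 the Ctrl libraries held 2.35, 1.91 and 1.85 kb and the FGR libraries none, the one member called (adjusted p = 8.37e-04 by limma). Genome-wide 34.9% of 10313 genes fell and 0.0873% rose. Ccl9, Ccl3 and Ccl4 held 1.3 ± 0.83, 0.926 ± 0.588 and 0.714 ± 0.529 kb in Ctrl and none in FGR, without a call. At a common threshold of q 0.05 no member had enough peaks left to test, and with replicate 4 added, a narrow list without a peak at any member, Ccl12 was not called (adjusted p = 0.144).

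Chemokine receptors and related atypical receptors were measured in the same way. Ccr3 lost H3K9ac from 1.86 ± 0.253 kb to none, and the atypical receptor Ccrl2 fell from 3.53 ± 0.281 kb to 1.94 ± 0.192 kb. Ccr1, the receptor of Ccl6 and Ccl9, had 0.452 ± 0.464 kb and 0.252 ± 0.177 kb of H3K9ac, which did not pass the test, while its H3K27ac fell from 2.19 ± 0.427 kb to 0.972 ± 0.090 kb. Ccr2, the monocyte receptor of Ccl2, had no H3K9ac or H3K4me3 peak in any library and fell in H3K27ac from 0.588 ± 0.070 kb to 0.250 ± 0.177 kb. The scavenger Ackr1 had none of the 3 marks, and Ackr2 did not pass the test in H3K9ac or H3K27ac.

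Across all 22 chemokine receptors, 17 were tested for H3K9ac, of which 8 fell, 2 rose (Ccr10 and Cxcr4) and 7 did not pass. Their median difference was -0.43 kb, and of all genes tested for this mark 30% fell and 28.5% rose. Cxcr6 went from 1.35 ± 0.052 kb to none and Xcr1 from 4.64 ± 0.361 kb to 1.23 ± 0.604 kb. In H3K27ac 12 of 16 receptors fell, no larger a share than the 81.6% of all genes tested, among them Cx3cr1, the fractalkine receptor of microglia, from 9.77 ± 0.184 kb to 6.33 ± 0.476 kb, and Ccr6 from 5.11 ± 0.148 kb to 4.0 ± 0.115 kb. Of chemokine ligands encoded elsewhere, 15 of 22 measured were tested for H3K9ac, and 7 rose, 1 fell (Ccl25, from 2.2 ± 0.109 kb to 1.61 ± 0.046 kb) and 7 did not pass, with a median difference of 0.06 kb. Cxcl12 rose from 0.070 ± 0.141 kb to 1.44 ± 0.101 kb, Cx3cl1 from 0.361 ± 0.247 kb to 2.25 ± 0.618 kb and Cxcl14 from none to 0.640 ± 0.177 kb. In H3K27ac 5 of 10 such ligands fell, Cxcl16, Ccl24, Ccl25, Cxcl9 and Cxcl17, and 1 rose, Cxcl12. Of all genes tested for H3K27ac 81.6% fell and 0.194% rose. The difference between these lists and the cluster was not tested.

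Genes for factors that act on chemokine genes moved in both directions. Of 25 such genes tested for H3K9ac, 12 fell, 6 rose and 7 did not pass, with a median difference of -0.57 kb. Among all genes tested for H3K9ac 30% fell and 28.5% rose. Rel, an NF-kappaB subunit, fell from 3.28 ± 0.111 kb to 1.99 ± 0.071 kb, Junb from 6.36 ± 0.237 kb to 4.84 ± 0.086 kb and Irf5 from 4.94 ± 0.179 kb to 3.70 ± 0.134 kb. All 24 tested for H3K27ac fell, beside 81.6% of all genes tested, with the smallest adjusted p-values at Junb, Ticam1, Tnfaip3 and Rela. Rela itself had 4.44 ± 0.076 kb and 4.40 ± 0.689 kb of H3K9ac (adjusted p = 0.906 by limma).

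Outside the cluster, the genes closest to a member in covered length were found by the mean absolute difference over the 24 libraries of the 3 marks. For both Ccl12 and Ccl9 they were the same 3 genes, Shoc1, Edem1 and Evi2b, at 0.263, 0.361 and 0.388 kb from Ccl12 and 0.448, 0.363 and 0.390 kb from Ccl9. Evi2b, for example, had 3.50 kb of H3K9ac in Ctrl and none in FGR, 5.21 and 2.93 kb of H3K27ac, and no H3K4me3 in Ctrl against 2.82 kb in FGR. Ccl3 was nearest to Clec4a3, a myeloid C-type lectin gene (0.234 kb), then Meig1 and Lsm6. Ccl4 was nearest to Ccdc122 (0.398 kb), Mettl16 and Apobec1, and Ccl6 to Lrrc39 (0.288 kb), Emc3 and Tlr3. The nearest for Ccl2 were Krt78, Gm11213 and Tma7-ps, and for Ccl7 Gm10024, Gm10142 and Zfp229, all with short coverage. Ccl5 had a peak in 8 of the 24 libraries, too few to be matched.

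Markers of the cells were measured in the same way. All 8 microglia markers had peaks in the 3 active marks. Their summed H3K9ac was 41.8 to 44.7 kb in Ctrl and 24.3 to 26.4 kb in FGR, with 6 lower and 2 higher (Tmem119 and Sall1). Beside these and the marker counts below, 30% of all genes tested for H3K9ac fell and 28.5% rose. No marker of monocytes and neutrophils (Ly6c2, Ly6g, S100a8, S100a9, Retnlg) had an H3K9ac or H3K27ac peak in any library. In H3K4me3 S100a8 alone had peaks, none in Ctrl and 0.155 to 0.285 kb in FGR. It was called higher, beside 95.5% of all genes tested for that mark. Border-associated macrophages, another source of these chemokines, had 5 markers, of which Lyve1 and Ms4a7 were without H3K9ac in all libraries, and their summed H3K9ac was 2.4 to 2.69 kb in Ctrl and 0 to 1.0 kb in FGR. For 4 lymphocyte markers it was 0.450 to 1.33 kb and 0.757 to 2.02 kb, with Cd3e at 0 throughout. Neuron markers (5, with Snap25 and Gad1 at 0) held 0 to 0.709 kb in Ctrl and 3.37 to 5.03 kb in FGR, and 2 of 3 tested rose (Rbfox3 and Slc17a7). Cxcl17, Ccr10, Cxcr4 and these markers were named after their values were seen. Oligodendrocyte lineage markers (4, with 1 at 0) held 1.53 to 2.5 kb and 3.13 to 3.94 kb, astrocyte markers (4, with Aqp4 at 0) 3.14 to 4.18 kb and 1.82 to 4.86 kb, and 4 endothelial markers 1.51 to 2.75 kb and 2.57 to 5.64 kb. The part of these markers in the chemokine results was not tested.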

How the data were processed

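Native chromatin immunoprecipitation of 4 marks in Ctrl and FGR microglia gave 32 peak lists, 1 per library, deposited by the authors. Input libraries were not used. The submitters' processing notes name the peak caller MACS2 (2.2.7.1), the aligner Bowtie2 (2.4.5), Trim Galore (0.6.5), SAMtools (1.3.1), DiffBind (3.12.0) and the build mm10. Their settings were not given in the sources at hand. Each deposited peak has a position, a fold enrichment (a ratio), a −log10 p-value and a −log10 q-value, as the authors made them.

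From the positions, the kb covered within 2.5 kb of either end of every protein-coding gene (RefSeq GRCm38.p6, chromosomes 1 to 19 and X) was computed per library. Genes with a peak in at least 2 libraries of a mark were fitted with limma 3.58.1 (R 4.3.3). Their p-values were adjusted together by Benjamini-Hochberg, and 0.05 was the threshold. The fit was tested on simulated data. H3K9me3 used replicates 1 to 3. Stretches of chromosome were compared by a two-sided exact permutation test over libraries, which cannot go below 0.0286 for 4 against 4 or 0.1 for 3 against 3. The labels do not say that same-numbered libraries share an animal, batch or day, so no block was used. The deviations of same-numbered libraries were close to uncorrelated (r -0.0212 to 0.0337). In H3K9ac, though, 3 of 4 libraries matched their own number best (r 0.009 to 0.0215).

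The 8 members, the lists of other ligands, receptors, factors and markers, and the tests were chosen with earlier results of these data known. Genes named are the members, Ccl1, Ccl8, Ccl11, genes within the gene groups and chosen chemokine and atypical receptors. Also named are the 4 genes of each list with the smallest adjusted p in H3K9ac or H3K27ac, and the 3 genes nearest each member in covered length. Some genes that this rule takes in are not reported here. Other windows, thresholds, list lengths, normalizations and samples were tried as alternatives.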

Additional observations from a re-analysis of the deposited data

Results flagged for a closer look

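A single library stood apart from the other 3 of its group in 13 of 61 groups of 4 examined, where chance alone flags about 1 in 20. In 8 of them the other 3 libraries had no peak, so any peak set 1 library apart. These were H3K4me3 at Ccl7 in Ctrl replicate 1 (0.295 kb), at Ccl12 in Ctrl replicate 2 (0.334 kb), at Ccl9 in Ctrl replicate 4 (0.293 kb) and at Ccl5 in FGR replicate 2 (0.222 kb), H3K9ac at Ccl5 in Ctrl replicate 3 (0.118 kb) and FGR replicate 2 (0.304 kb) and at Ccl7 in FGR replicate 2 (0.254 kb), and H3K27ac at Ccl5 in FGR replicate 2 (0.036 kb). The FGR libraries numbered 2 were thus the ones with a peak in the Ccl5 window in all 3 marks.

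In the other 5, H3K4me3 at Ccl6 was high in Ctrl replicate 3 (0.613 kb), H3K4me3 at Ccl3 was low in FGR replicate 3 (2.105 kb), H3K27ac was low at Ccl12 in Ctrl replicate 2 (4.427 kb) and at Ccl5 in Ctrl replicate 3 (0.080 kb), and H3K27ac around Ccl5 to Ccl4 was low in FGR replicate 4 (21.160 kb). The H3K9me3 narrow list of FGR replicate 4, outside the main comparison, covered 2.392 kb of the whole cluster, where that of Ctrl replicate 4 covered none.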

How the results depend on the processing

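H3K9ac was called lower at 6 members under every alternative that gave a count, except 7 at 5 kb and after quantile normalization. No share of all genes called is given for any alternative in this section. No count here, H3K9me3 included, can therefore be read as particular to the members. Leaving out 1 library at a time gave 6 for H3K9ac, 6 for H3K27ac and 5 to 6 higher for H3K4me3. With the replicate number as a replicate block, H3K9ac was called lower at 6, H3K27ac at 6 and H3K4me3 higher at 6, and paired sign-flip tests of the stretches gave 0.125, the smallest 4 pairs allow. With lists of equal length 2 members were higher in H3K4me3, and the Ccl2 to Ccl12 stretch differed by 0.025 kb. With the full lists taken per Mb of genome covered, H3K4me3 differed by 0.053 kb in that stretch and by -0.077 kb over the whole cluster. After quantile normalization H3K27ac was lower at 1 member and higher at 1, with differences of 0.457 kb at Ccl12, 0.585 kb at Ccl3, 0.240 kb at Ccl4, 0.056 kb at Ccl7 and 0.012 kb at Ccl5, and H3K4me3 at Ccl7 was -0.232 kb. H3K9ac at Ccl5 turned to -0.963 kb at 5 kb and -0.185 kb after quantile normalization. Member starts without H3K9ac in all FGR libraries numbered 1 when peaks within 0.5 kb counted. The cause of these shifts was not tested.

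H3K9me3 depended on nearly every choice. Members called lower numbered 0 at 1 kb, at equal list length, at the stricter or common threshold, by percent of gene body and with replicate 4, then 5 on the log2 scale, 2 without a filter, 2 with the replicate block, and 1 to 4 without 1 library (3 without Ctrl replicate 1, 4 without Ctrl replicate 3). Quantile normalization gave 0.229 kb at Ccl5 and 0.805 kb at Ccl6. The Ccl2 to Ccl12 stretch differed by -9.635 kb without flanks, -25.832 kb with 50 kb flanks, -0.002 kb at equal length and 0 at the stricter or common threshold. The Ccl5 to Ccl4 stretch gave -0.245, 0 and 0.075 kb, and the whole cluster -2.530, 0 and 2.442 kb, at equal length, the stricter and the common threshold. The start-only window was fitted for 4 members, so it gives no count.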

Other observations

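The H3K27ac of the Ccl5 to Ccl4 stretch was divided into more and narrower peaks in FGR, as the whole H3K27ac lists were. Ctrl libraries had 30.2 ± 2.22 peaks there with median widths of 1109 to 1363 bp, and FGR libraries had 44.5 ± 5.74 peaks with median widths of 356 to 502 bp (SD, n = 4 each). H3K9ac went the other way in number, from 24.5 ± 1.73 to 13.5 ± 3.11 peaks, with median widths of 555 to 942 bp and 319 to 522 bp. Around Ccl2 to Ccl12, H3K27ac peaks numbered 13.2 ± 2.63 and 13.5 ± 4.36, and H3K9ac peaks 10.5 ± 2.65 and 0.75 ± 0.50. These numbers were not tested.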
